A study of Mus musculus with 8 samples.

Results

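Endothelial nuclei of the mouse primary visual cortex (V1) were the 399 nuclei to which the deposited cell table gives the type Endo, out of 102330 nuclei of 20 types (0.390%). Single nuclei of V1 were profiled by droplet RNA-seq at postnatal day 21, in 8 libraries of 1 animal each. All animals were GR fl/fl, which means that both copies of Nr3c1, the gene of the glucocorticoid receptor (GR), could be removed by Cre, and all had received an adeno-associated virus in the cortex at birth. In GR-KO animals the virus expressed Cre with EGFP, and in GR-Con animals it expressed a truncated, inactive Cre (ΔCre) with EGFP, in both cases from GfaABC1D, a promoter that is active in astrocytes. Animals of each genotype were normally reared (NR) or dark-reared (DR), which gave 4 groups (GR-Con and GR-KO under NR, GR-KO and GR-Con under DR), each with 1 male and 1 female library. The vector was therefore aimed at astrocytes, and the endothelial cells of GR-KO animals were not its intended target. The study sorted nuclei for the DNA dye DRAQ5 and against GFP.

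Endothelial cells line every blood vessel. In the brain they form the blood-brain barrier: tight junctions seal the gaps between neighbouring cells, transcytosis is kept low, and dedicated transporters carry glucose, amino acids, lactate and hormones across while efflux pumps return foreign compounds to the blood. Norrin and Wnt ligands from glia and neurons keep this state through β-catenin in the endothelial cell, VEGF and angiopoietin receptors govern vessel growth and stability, and Notch separates arterial from venous identity. Glucocorticoids reach these cells from the blood, and endothelial cells carry their own receptor for them.

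Promoter sequences are given first for the gene with the highest ratio to any other type (Adgrl4), for the markers Flt1 and Cldn5 and for the transporter Slco1a4, since the description of these nuclei turns on these genes. They are the 250 bases before the RefSeq start on GRCm38.p6, written 5′ to 3′ on the strand of the gene, and capitals mark GGAAG or its reverse complement CTTCC, letters found in the sites of ETS factors, the family of Erg, Fli1 and Ets1.
Adgrl4 (chr3:151437632-151437881, plus strand): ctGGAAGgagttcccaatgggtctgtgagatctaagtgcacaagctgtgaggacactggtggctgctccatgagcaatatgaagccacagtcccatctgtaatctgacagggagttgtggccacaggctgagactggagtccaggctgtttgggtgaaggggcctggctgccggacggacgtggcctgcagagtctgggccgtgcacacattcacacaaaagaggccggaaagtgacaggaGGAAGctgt
Flt1 (chr5:147726012-147726261, minus strand): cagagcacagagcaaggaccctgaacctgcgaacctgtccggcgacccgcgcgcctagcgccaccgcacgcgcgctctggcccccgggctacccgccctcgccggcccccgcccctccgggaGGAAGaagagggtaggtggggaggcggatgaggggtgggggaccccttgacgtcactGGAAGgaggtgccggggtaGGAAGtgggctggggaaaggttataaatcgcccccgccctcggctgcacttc
Slco1a4 (chr6:141856221-141856470, minus strand): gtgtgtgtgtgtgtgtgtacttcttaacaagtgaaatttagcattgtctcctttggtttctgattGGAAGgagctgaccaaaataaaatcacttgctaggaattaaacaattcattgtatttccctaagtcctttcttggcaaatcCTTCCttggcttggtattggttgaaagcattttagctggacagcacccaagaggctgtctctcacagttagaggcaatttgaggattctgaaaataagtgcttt
Cldn5 (chr16:18776597-18776846, plus strand): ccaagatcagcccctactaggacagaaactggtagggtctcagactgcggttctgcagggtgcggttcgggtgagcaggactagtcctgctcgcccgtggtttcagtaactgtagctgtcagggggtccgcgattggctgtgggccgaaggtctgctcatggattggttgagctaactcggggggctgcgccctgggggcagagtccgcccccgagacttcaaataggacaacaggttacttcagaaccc
The Flt1 window held 3 matches, those of Adgrl4 and Slco1a4 held 2 each, and that of Cldn5 held 0. One of these 5-letter strings on either strand was found in 63.6% of the 27025 promoters of the table and in 67.9% of the 7792 whose gene had at least 10 CPM (counts scaled to a common total of 1000000 UMIs) in endothelial nuclei. It was found in 75.0% of the 84 promoters of genes at least 4-fold higher in Endo than in every other type. A match is a string of letters, and binding was not measured.

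Endothelial nuclei were unevenly spread over the libraries. NR GR-Con gave 27 (male) and 72 (female), NR GR-KO 37 and 45, DR GR-Con 115 and 5, and DR GR-KO 58 and 40. The DR GR-Con female library had fewer than 10 and was left out of every test on genes, so DR GR-Con was represented by 1 male library, and in comparisons with it the group, the animal and its sex cannot be told apart. The 3 libraries NR GR-Con male, NR GR-KO male and DR GR-Con female stood apart: their shallowest nucleus of any type held 4635 to 7024 UMIs (unique molecular identifiers, 1 per counted RNA molecule), against 1402 to 1460 in the other 5, and they held 2 to 4 microglia against 573 to 948. Microglia and endothelial nuclei are small, with median UMI numbers of 2448 and 3395 against 21863 in L2/3 neurons. In NR the high floor coincided with male sex. No barcode was shared between endothelial nuclei, and 9 of their barcodes also occurred in another library.

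Part of the endothelial nuclei also held the RNA of neurons. Neuron marker transcripts (10 genes) reached 60 or more per 10000 UMIs in 73 of the 399 nuclei (18.3%), called neuron-rich here, a limit set after the data were seen. These nuclei held 50.1% of all endothelial UMIs, and 40.5% to 63.2% per library. They had a median of 20939 UMIs against 2902 in the other 326, and of the 64 endothelial nuclei above 15000 UMIs 56 were neuron-rich. Cldn5, Flt1 and Pecam1 together made up 7.17 per 10000 UMIs in neuron-rich nuclei and 44.5 in the others, while neuron markers made up 210 and 14.8, against 299.5 in L2/3 neurons and 9.40 in oligodendrocytes. SMC-Peri (smooth muscle cells and pericytes, the mural cells that wrap vessels) and VLMC (vascular leptomeningeal cells, the fibroblasts of the vessel sheath and meninges) were also high, at 149.3 and 112.3. Levels are therefore given with and without these nuclei where it matters, and whether they were doublets or carried free RNA was not tested.

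**Figure D1:**
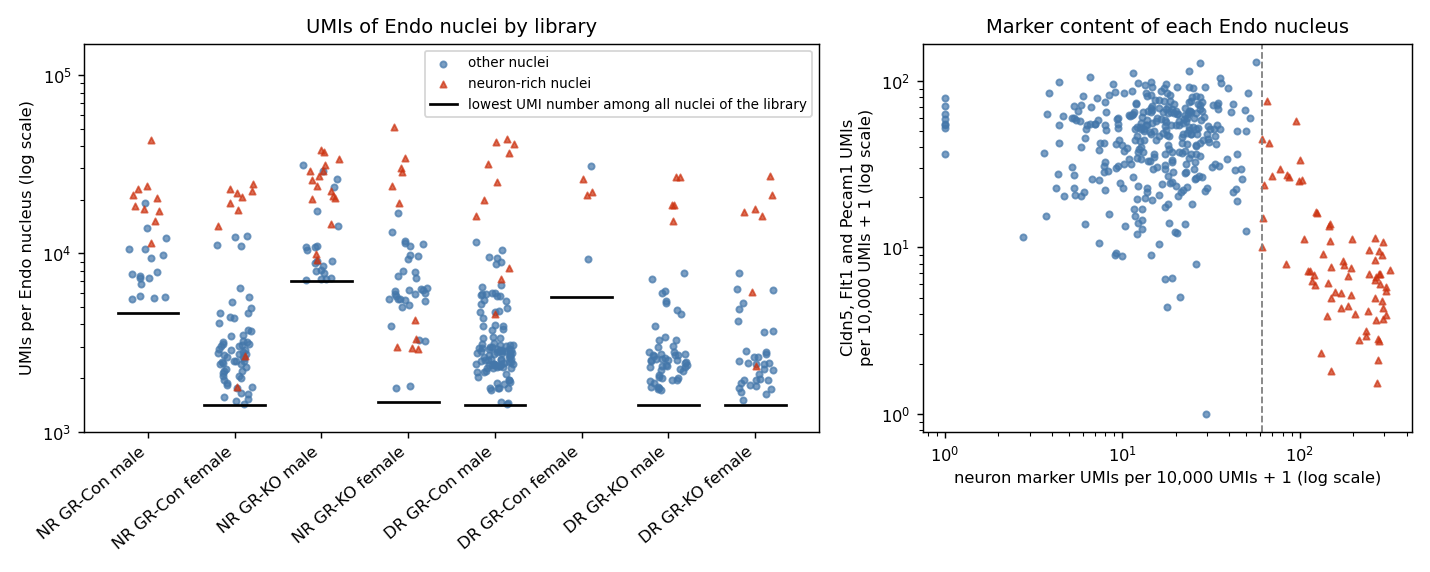
UMIs per endothelial nucleus on a log axis by library (left; 1 point per nucleus, black line the shallowest nucleus of any type in that library) and, for each nucleus, UMIs of Cldn5, Flt1 and Pecam1 against neuron marker UMIs, both per 10000 UMIs plus 1 on log axes (right; dashed line at 60). Of the 73 neuron-rich nuclei (red triangles), which have a median of 20939 UMIs, 56 lie above 15000 UMIs, and most have low endothelial markers. Some are shallow with high endothelial markers, such as a nucleus of NR GR-KO female with 2947 UMIs and 74.7 per 10000. The black line is higher in 3 of the 8 libraries.

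The markers fitted the label. Flt1, which encodes VEGF receptor 1, was detected in 395 of the 399 endothelial nuclei, Pecam1, an adhesion molecule of endothelial junctions, in 287 (71.9%), and Cldn5, the main claudin of the barrier, in 192 (48.1%), and 398 of the 399 nuclei held at least 1 UMI of the 3. In L2/3 neurons, which had a median of 21863 UMIs and should lack all 3, the shares were 0.666%, 2.85% and 0.475%. With libraries pooled, Flt1 (chr5:147561604-147726011) stood at 2167 CPM against 121 in the next type, SMC-Peri. Cldn5 (chr16:18776847-18778262) stood at 141 CPM against 3.003 in SMC-Peri, and Pecam1 at 274 against 23.9 in microglia.

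Of 3845 genes at 50 CPM or more in endothelial nuclei, 109 were at least 4-fold higher than in every other type. This describes the deposited types with libraries pooled and was not tested, since the types were clustered on these counts. Adgrl4 (chr3:151437887-151545086), an adhesion receptor of endothelial cells, led with 1089 CPM against 2.07 in the next type, a ratio of 526. Mecom (chr3:29951296-30548008), a zinc finger transcription factor, stood at 1380 against 8.26 CPM. Sox17, which acts in arterial identity, stood at 111 against 2.25, and Egfl7, a secreted endothelial matrix protein, at 303 against 4.26. Among transporters, Slco1a4 (chr6:141805440-141856199), a carrier of organic anions, had 2716 against 63.9 CPM, Slc7a5, the large neutral amino acid transporter, 697 against 13.3, and Abcb1a, the efflux pump P-glycoprotein, 529 against 8.52. The angiopoietin receptor Tek had 432 against 9.76 CPM, its partner Tie1 was 34.7 times the next type, and Nos3, the endothelial nitric oxide synthase, 40.7 times.

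**Figure D2:**
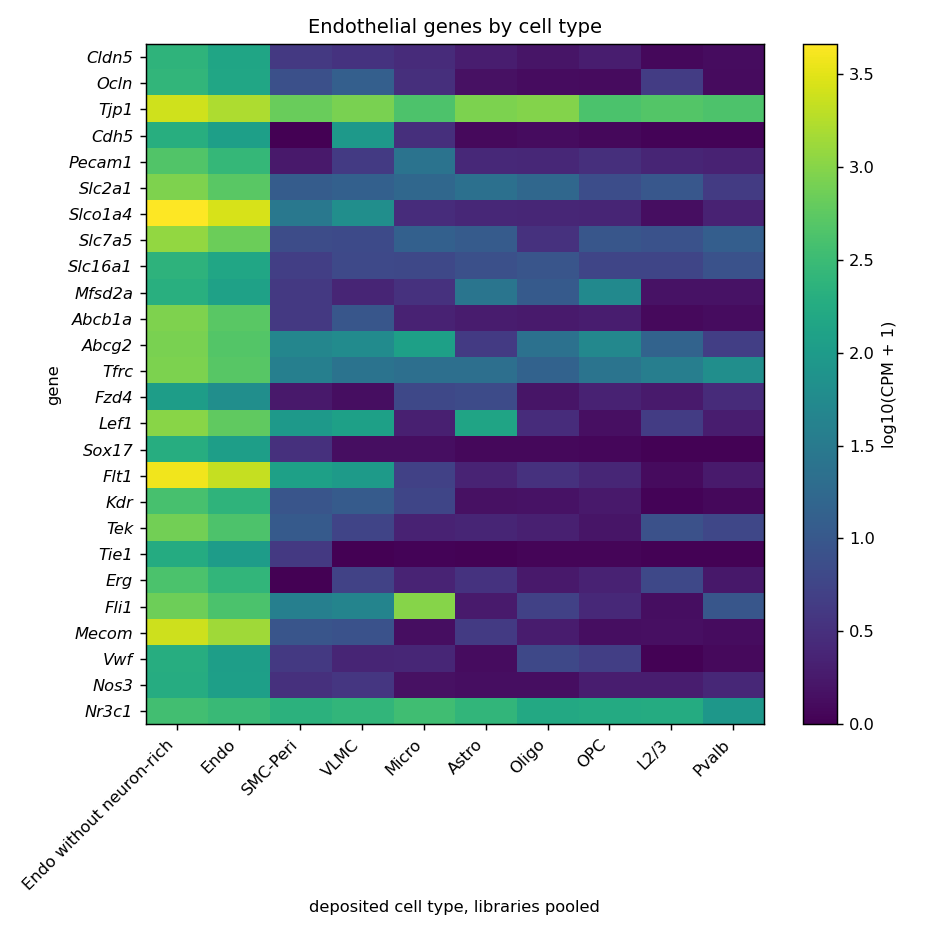
Levels of endothelial genes and Nr3c1 (rows), libraries pooled, as colour on the scale log10(CPM + 1). Columns are endothelial nuclei without and with the neuron-rich ones, SMC-Peri, VLMC, microglia, astrocytes, oligodendrocytes, oligodendrocyte progenitors, L2/3 neurons and Pvalb interneurons. Both endothelial columns are bright for genes such as Slco1a4, at 2716 CPM with all nuclei against 63.9 in VLMC. Fli1 is brighter in microglia (1001 against 419 CPM).

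Across 9896 genes, endothelial nuclei without the neuron-rich ones were most like VLMC (Pearson r = 0.655 of log2(CPM + 1), across genes, which are not independent) and SMC-Peri (0.646), then astrocytes (0.571), and least like chandelier cells (0.462). With all endothelial nuclei the values rose to 0.803 and 0.818, and that with L2/3 neurons from 0.485 to 0.740. The types share libraries, and the part of free RNA in these values was not tested. The order of VLMC and SMC-Peri was not the same in both.

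Of 21 barrier transporters, 19 were highest in endothelial nuclei and 12 of them by at least 4-fold. Slc2a1, the glucose transporter GLUT1, stood at 526 CPM against 21.5 in astrocytes, Slc16a1, the lactate and ketone transporter MCT1, at 144 against 10.3, and Abcc4, an efflux pump, at 606 against 44.0. Slco1c1, the thyroid hormone carrier, was shared with astrocytes (1192 against 922 CPM). Mfsd2a, the lipid carrier that keeps transcytosis low, had 124 CPM against 52.9 in oligodendrocyte progenitors, and Tfrc, the transferrin receptor, 516 against 63.9. Among 10 tight junction genes 7 were highest in Endo and 4 by 4-fold, with Ocln (occludin) at 147 CPM against 11.7 in VLMC, while the scaffold gene Tjp1 was also present in oligodendrocytes (1614 against 963 CPM). Plvap, which forms the diaphragms of leaky vessels, was at 1.95 CPM, below its 11.5 in Lamp5 interneurons.

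All 6 VEGF and angiopoietin genes that were highest in Endo were so by 4-fold, out of 10, among them Kdr (VEGF receptor 2; 236 against 10.3 CPM), Flt4 (VEGF receptor 3; 126 times the next type) and the phosphatase Ptprb, which opposes Tek (1060 against 37.5). Vegfa, the ligand, was at 25.1 CPM in Endo and 362 in astrocytes. In the Wnt and norrin list 9 of 20 were highest in Endo, with Fzd4, the norrin receptor, at 63.2 against 5.93 CPM and Lef1, the nuclear partner of β-catenin, at 587 against 134. Of 28 endothelial transcription factors 17 were highest in Endo and 11 by 4-fold, including Klf2 (145 against 6.39 CPM), a flow-induced factor, and Foxq1 (23.3 times the next type). Erg, Fli1 and Ets1 were less particular: Erg was at 259 CPM with all nuclei and 423 without neuron-rich nuclei, against 262 in L5PT neurons, Fli1 at 419 against 1001 in microglia and Ets1 at 465 against 191 in SMC-Peri. Eng and Acvrl1, receptors of the BMP branch that are mutated in hereditary telangiectasia, stood at 5.52 and 9.95 times the next type. Edn1, the vasoconstrictor endothelin, had 82.4 against 5.05 CPM.

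Of 14 tip cell and vessel growth genes 7 were under 5 CPM without neuron-rich nuclei, while 3 were at least 4-fold over every other type; with all nuclei Esm1 was at 0.651 CPM and Aplnr at 2.93. Of 17 interferon and inflammation genes 2 were at 0, 4 were at 50 CPM or more without neuron-rich nuclei and 4 were highest in Endo. Sele and Selp, the selectins by which inflamed endothelium catches leukocytes, and the chemokines Cxcl10 and Ccl2 were at 0 among 3071762 UMIs, and the division genes Mki67 and Top2a at 0.651 CPM each. Basement membrane genes were shared with neighbouring types: 6 of 14 were highest in Endo and 0 by 4-fold, with Col4a1 at 276 against 177 CPM.

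Of the 326 nuclei that were not neuron-rich, 67 held at least 2 UMIs of 8 arterial genes (among them Bmx, Sema3g and Efnb2), 150 held at least 2 of 6 venous genes (among them Vwf and Nr2f2), 36 held both and 145 neither. Both classes were deeper than the rest (median UMIs 6012 and 4184, against 2458 in nuclei with neither), so the counts depend on depth, and they ran from 12.1% to 38.2% and from 30.3% to 81.0% over the 7 libraries with 10 or more endothelial nuclei, with the highest values in the 3 NR libraries that had the deepest endothelial nuclei. Nuclei with arterial genes had less Il1r1, the interleukin 1 receptor (88.7 against 285 CPM in the others), and about as much Nr2f2 (86.8 against 85.7). Both are among the 6 venous genes, which played no part in this split. These nuclei also had less Car4, a capillary carbonic anhydrase (166 against 363), and more Mgp, the matrix Gla protein of arteries (71.7 against 16.9). Of the barrier genes, Slco1a4 was at 4453 CPM in them and 4625 in the others and Cldn5 at 264 and 231, while Tfrc was at 624 and 1000, Slc16a1 at 172 and 261 and Mfsd2a at 253 and 178. These are pooled levels, chosen after the values were seen and not tested.

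Viral transcripts were nearly absent. EGFP was found in 2 of 399 endothelial nuclei (0.501%, exact Clopper-Pearson binomial 95% interval 0.0608% to 1.80%, which covers counting error only), 1 each in the DR GR-KO male and female libraries. Among the 180 endothelial nuclei of GR-KO animals the share with EGFP was 1.11% (interval 0.135% to 3.96%). Cre was found in 0 of the 180 nuclei of GR-KO animals (median 5264 UMIs). This allows a share of nuclei with a Cre UMI of up to 1.67% if 3 counts are taken as the limit for 0. The exact 95% interval reaches 2.03%. Neither sets a limit on nuclei that carried the vector. In astrocytes of GR-KO animals (median 6394 UMIs) the shares were 8.25% for EGFP and 4.59% for Cre, and in their oligodendrocytes, which the promoter should spare, 0.0743% and 0.149%. L2/3 neurons, which the promoter should also spare, had 1.37% for EGFP and 4.15% for Cre in GR-KO animals, at a median of 23592 UMIs. With each nucleus thinned to 1000 UMIs, Cre was found in 0.177% of L2/3 neurons and 0.963% of astrocytes of GR-KO animals. The delCre feature of the annotation was found in 4 nuclei (1.00%), all neuron-rich and all from NR GR-KO, a genotype that received the intact Cre, so it does not separate the genotypes here, and after thinning each nucleus to 1000 UMIs it was found in 0.

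Nr3c1 itself, the gene targeted in astrocytes, was present in the endothelial nuclei of every group. Without neuron-rich nuclei its level was 381 and 333 CPM in NR GR-Con (male, female), 393 and 286 in NR GR-KO, 363 in DR GR-Con and 364 and 417 in DR GR-KO. GR-KO and GR-Con overlapped in NR, and in DR the lower GR-KO library (364) was level with the single GR-Con one (363). The DR difference had the opposite sign in the fit with all nuclei. With all nuclei GR-KO differed from GR-Con by log2 0.25 ± 0.30 (SE) in NR and by -0.28 ± 0.47 in DR, neither of them called. Reads in a floxed gene can come from exons outside the deleted part, and which exons these reads came from was not analysed here. Pooled over libraries Nr3c1 was at 304 CPM, close to its 342 in microglia, and the mineralocorticoid receptor Nr3c2 was at 200 against 781 in Vip interneurons.

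Among 28 known glucocorticoid targets, 10 were highest in endothelial nuclei and 2 by 4-fold: Nfkbia, the inhibitor of NF-κB (144 against 25.9 CPM), and Xdh, xanthine dehydrogenase (46.2 against 3.72). Fkbp5, a chaperone that limits the receptor, was at 47.9 CPM against 426 in microglia, Tsc22d3 (GILZ) at 68.0 against 201 in oligodendrocytes, and Zbtb16 at 372 against 632 in Vip interneurons.

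Endothelial nuclei made up 0.205% (male) and 0.541% (female) of NR GR-Con, 0.305% and 0.473% of NR GR-KO, 0.759% and 0.0362% of DR GR-Con, and 0.509% and 0.289% of DR GR-KO. The lowest and the highest share belonged to the same group, DR GR-Con. Shares were tested on the nucleus numbers of all types with edgeR (quasi-likelihood F-test), and no comparison passed the test: the log2 difference between GR-KO and GR-Con was 0.06 ± 0.71 (SE) in NR (adjusted p = 0.97) and 0.00 ± 1.51 in DR (adjusted p = 1.00), and that between DR and NR was 0.09 ± 1.65 in GR-Con (adjusted p = 0.96) and 0.04 ± 0.52 in GR-KO (adjusted p = 0.97). The fits on shares kept all 8 libraries, also DR GR-Con female, which the tests on genes left out. Without the DR GR-Con male library the DR genotype difference was 3.40, which rests on the 5 nuclei of the female library. Without that female library the DR genotype difference was -0.95, and the difference between DR and NR in GR-Con was 1.02. Among nuclei at or above the highest UMI floor, an alternative added after the data were seen, DR against NR was -1.95 ± 0.52 (SE) in GR-KO (unadjusted p = 0.022, adjusted p = 0.087 by edgeR) and -1.35 over both genotypes (unadjusted p = 0.031, adjusted p = 0.23 by edgeR), so the size of the share difference depended on the floor.

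Among genes at 50 CPM or more without neuron-rich nuclei the highest library was a median of 2.03 times the lowest, over the 3996 genes detected in all 7 libraries, and in the barrier transporters it was 1.70 times, in the tight junction genes 1.80 and in the VEGF and angiopoietin receptors 1.74. The 21 transporters summed to 15006 to 18397 CPM per library. Slc2a1 ran from 751 CPM in DR GR-KO female to 984 in NR GR-Con female, Slco1a4 from 3736 to 5236, Tjp1 from 1948 to 2729 and Abcb1a from 796 to 1086. Cldn5 ran from 146 to 302 CPM, with both extremes in GR-KO libraries, DR female and NR female. Abcc4 had a wider range, from 671 to 1419 CPM, and Slc16a1 ran from 92.1 to 240 CPM with all nuclei. These transporters are described with the rearing comparison in GR-KO. The widest of the 20 lists were the venous genes (4.28 times), the immediate early genes (2.97 times) and the Notch and arterial genes (2.55 times), over 5, 4 and 7 genes.

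**Figure D3:**
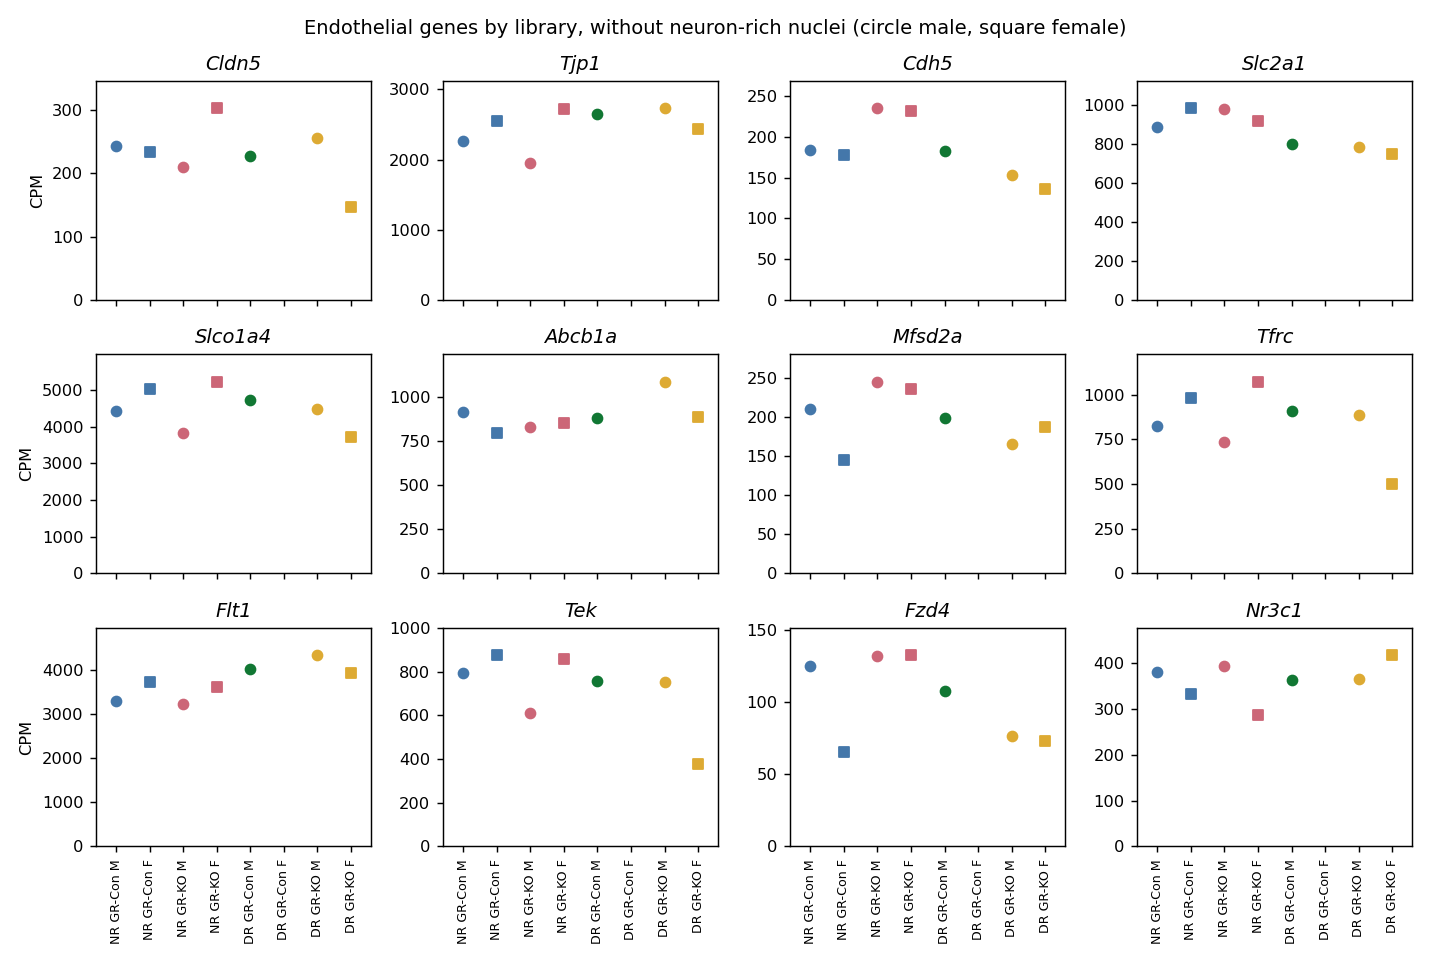
CPM of 12 endothelial genes in each of the 7 libraries with 10 or more endothelial nuclei, neuron-rich nuclei left out (circles male, squares female, 1 colour per group, axes from 0). The groups overlap or lie close for junction genes, transporters and receptors, as for Slc2a1 at 751 to 984 CPM, and Nr3c1 stays between 286 and 417 in every library.

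To ask whether astrocyte GR or light altered endothelial expression, counts were summed per library and genes tested with the edgeR likelihood ratio test. The study used this test for genotype in NR. Benjamini-Hochberg adjustment was over all genes tested (called: adjusted p under 0.05). P-values measure only the spread between these few animals. Most calls were of genes that other types express more, and their number depended on the fit. GR-KO against GR-Con called 17 of 6875 genes in NR (0.247%) and 11 of 5922 in DR (0.186%), and DR against NR called 35 of 7458 in GR-Con (0.469%) and 34 of 6304 in GR-KO (0.539%). Of these 16, 10, 27 and 21 were at least 4-fold higher in another cell type, as were 14.4% to 15.8% of the genes tested. Most of the UMIs of 13, 9, 29 and 26 of the called genes lay in neuron-rich nuclei. Those nuclei held 50.1% of all endothelial UMIs, and the same count over all genes tested is not given here. The quasi-likelihood F-test called 0, 14, 35 and 0 genes (unadjusted p under 0.05 in 262, 188, 317 and 359, against 294, 181, 319 and 414 by the likelihood ratio test), and DESeq2 called 4, 0, 0 and 0 (70, 20, 45 and 105 unadjusted). Without neuron-rich nuclei the likelihood ratio test called 1, 5, 7 and 2 (0.0205%, 0.12%, 0.13% and 0.0456% of the genes tested). With sex as a term, which blocks the male and female libraries, it called 73 for genotype in NR and 20 for rearing in GR-KO. Equal numbers of nuclei gave 401 for rearing in GR-Con, and leaving out 1 library gave up to 61 for genotype in NR (without NR GR-KO female) and up to 54 for rearing in GR-KO (without DR GR-KO male).

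**Figure D4:**
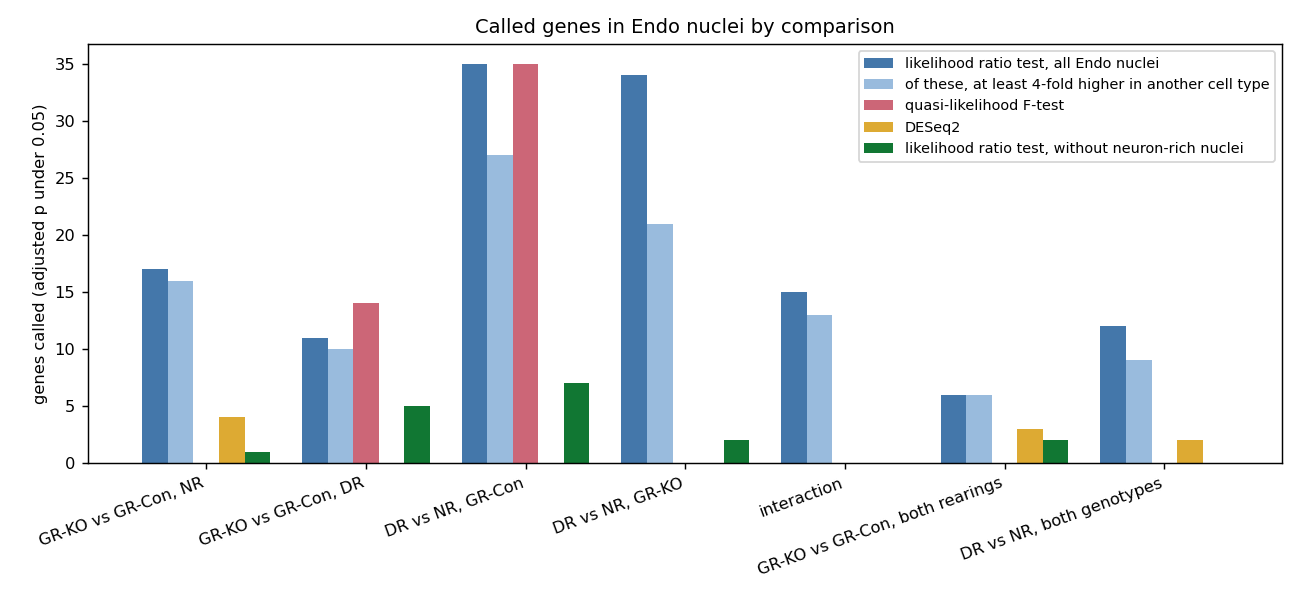
Genes called (adjusted p under 0.05, linear axis from 0) in endothelial nuclei in each of 7 comparisons, by the likelihood ratio test with all nuclei, the part of those at least 4-fold higher in another cell type, by the quasi-likelihood F-test, by DESeq2, and by the likelihood ratio test without neuron-rich nuclei. The first bar is tallest for DR against NR in GR-Con (35 genes), where the last is 7.

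Over 20 lists with 287 distinct genes (junctions, transporters, Wnt, VEGF, Notch, zonation, transcription factors, matrix, TGF-β, tone, sprouting, glucocorticoid response, clock, immediate early, hypoxia and interferon), GR-KO against GR-Con in NR called 1 of 190 tested, lower (0.16% of all genes tested were called lower), and in DR 0 of 188, and DR against NR called 0 of 199 in GR-Con and 1 of 194, higher, in GR-KO (0.222% of all genes tested). At an unadjusted p under 0.05 there were 8, 2, 12 and 13 (4.21%, 1.06%, 6.03% and 6.70%, against 4.28%, 3.06%, 4.28% and 6.57% of all genes tested). Their median log2 differences were -0.01, 0.09, 0.07 and 0.12, against -0.00, 0.03, -0.02 and -0.01 over all genes. Without neuron-rich nuclei 0 of 177 to 188 list genes were called in each of these comparisons, with an unadjusted p under 0.05 in 5, 3, 6 and 9 of them (3.97%, 2.91%, 3.03% and 5.44% of all genes tested).

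In NR, Cldn5 differed between GR-KO and GR-Con by log2 0.13 ± 0.35 (SE), Slc2a1 by 0.03 ± 0.31, Slco1a4 by -0.08 ± 0.37 and Abcb1a by -0.04 ± 0.30, and the 20 transporters tested had a median of 0.00 and a range of -0.66 to 0.79, with 0 called and 1 with an unadjusted p under 0.05. The glucocorticoid targets had a median of -0.17 in 16 tested, with 0 called.

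Hba-a1, a haemoglobin chain of red blood cells, was the one called gene in NR that met the rule for naming genes and was not higher in another type. It stood at 285 and 315 CPM in GR-Con and at 126 and 142 in GR-KO, groups that the rule required not to overlap. Hba-a1 fell by 1.15 on the log2 scale (SE 0.28, adjusted p = 0.024 by edgeR, and from 1.1e-04 to 1.00 in the other fits). Of its 505 UMIs, found in 74 nuclei, 10.3% lay in 1 nucleus. The call was lost without neuron-rich nuclei (log2 -1.25, adjusted p = 0.82) and without any single library (adjusted p from 0.13 to 0.55). Red blood cell RNA summed to 3.76 to 18.1 per 10000 UMIs over the libraries without neuron-rich nuclei, with the highest value in DR GR-KO male and the lowest in DR GR-KO female, and its part in this result was not tested.

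Ptgds, the prostaglandin D2 synthase, which VLMC express at 2429 CPM, was called lower in GR-KO in NR, and in DR in a test against a single GR-Con library. It is named with its values in view, since the naming rule leaves out genes higher in another type. In all endothelial nuclei it stood at 121 and 55.1 CPM in NR GR-Con, 18.0 and 18.0 in NR GR-KO, 75.2 in DR GR-Con and 7.61 and 0 in DR GR-KO. Each GR-KO library lay below each GR-Con library, and the log2 difference was -2.25 in NR (adjusted p = 0.0094 by edgeR). In DR it was -4.08, in a test with 1 GR-Con library whose spread came from the 2 GR-KO libraries alone. The DR difference set 2 UMIs in the GR-KO libraries against 48 in the GR-Con library, a ratio of CPM of 0.057 with an exact 95% counting interval of 0.00671 to 0.217. The NR call was lost without NR GR-Con male (-1.56, adjusted p = 0.46). Over both rearings, with rearing as a term, it was -2.69 (adjusted p = 1.2e-05), and without neuron-rich nuclei -3.21 (adjusted p = 2.3e-06, 1 of 2 genes called there, 0.0383% of those tested). With all nuclei the call over both rearings held without each single library (adjusted p = 2.8e-10 to 0.027), but not by the quasi-likelihood F-test (0.18). Ranbp3l, a gene of the leptomeningeal marker list at 1627 CPM in VLMC, moved with it, at 57.6 and 36.7 CPM in NR GR-Con, 6.01 and 13.5 in NR GR-KO, 36.0 in DR GR-Con and 3.81 and 4.91 in DR GR-KO (log2 -2.48 over both rearings, adjusted p = 3.6e-04, and 0.053 without DR GR-Con male). Both rested on few nuclei: Ptgds on 135 UMIs in 36 nuclei, 40 of them in 1 nucleus, and Ranbp3l on 70 UMIs in 19 nuclei. The summed leptomeningeal markers without neuron-rich nuclei were 5.84 and 2.53 per 10000 UMIs in NR GR-Con and 2.93 in DR GR-Con, against 2.53 and 0.497 in NR GR-KO and 0.256 and 1.46 in DR GR-KO, while the endothelial markers were between 38.4 and 49.8 in all 7. The part of leptomeningeal RNA in these calls was not tested. The quasi-likelihood F-test called 0 of 7318 genes over both rearings (231 unadjusted), the likelihood ratio test 6 (0.082%), of which 5 were lower (0.0683%), and DESeq2 3.

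In DR, where 2 GR-KO libraries were set against 1 GR-Con library, 10 of the 11 called genes were at least 4-fold higher in another type and the remaining one was sex-linked, so the rule named none. Without neuron-rich nuclei 5 were called: Tnr and Opcml higher (log2 3.93 and 1.86), both of which oligodendrocyte progenitors express most (5720 and 6918 CPM), Trpm3 (log2 -2.71) and Ptgds lower, which VLMC express most (12249 and 2429 CPM), and 1 sex-linked gene. These genes are named because of their values. Cldn5 differed by log2 0.04 ± 0.45 (SE), and the transporters had a median of 0.04. The 4 blood cell markers tested had a median of 1.51, against -1.11 in NR, and 0 were called (4 with an unadjusted p under 0.05): Hba-a1 was at 278 and 63.8 CPM in GR-KO and 62.7 in GR-Con. The glucocorticoid targets had a median of 0.52 over 16 tested, with 0 called. Their log2 differences ran from -0.71 to 1.03, the value of Tsc22d3.

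In GR-Con, haemoglobin transcripts were lower in the 1 DR library used than in the 2 NR libraries. The spread in this test came from the 2 NR libraries alone. Hba-a1 stood at 62.7 CPM in DR and at 285 and 315 in NR, a fall by 2.25 on the log2 scale (SE 0.46, adjusted p = 5.3e-04 by edgeR). Hba-a2 was at 47.0 against 143 and 239 (adjusted p = 0.0029), Hbb-bs at 121 against 217 and 551 (adjusted p = 0.036) and Hbb-bt at 12.5 against 41.2 and 131 (adjusted p = 6.2e-04), so 4 of the 4 blood cell markers tested were called lower, against 0.308% of all genes tested, with a median of -2.13. Hba-a1 and Hba-a2 were also called without neuron-rich nuclei (adjusted p = 0.0052 and 0.033). When each library was cut to an equal number of nuclei, the differences of Hba-a1, Hba-a2 and Hbb-bs were -0.23, 0.24 and 1.02, none of them called, so they turned on which nuclei were kept. In GR-KO, with 2 libraries a side, the 3 blood cell markers tested had a median of 0.43 and over both genotypes the 4 tested had one of -0.38, with 0 called in either. These are genes of red blood cells, and the part of free RNA in this result was not tested.

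The other genes named by the rule in GR-Con were Pdzrn4 (log2 1.63), a ubiquitin ligase, Cabp1 (-1.91), a neuronal calcium-binding protein, and Cadps2 (-1.77), which primes vesicles for release. Between 86.2% and 94.6% of their UMIs lay in neuron-rich nuclei, and with equal numbers of nuclei Pdzrn4 turned to -2.01. Without neuron-rich nuclei 7 genes were called: Hba-a1, Hba-a2, the myelin genes Mbp (-1.95) and Mobp (-3.43), Nnat (-2.67), which VLMC express most, and 2 sex-linked genes. Oligodendrocyte markers without neuron-rich nuclei summed to 14.2 per 10000 UMIs in NR GR-Con male and to 1.64 in NR GR-Con female, against 1.80 in DR GR-Con male, so the NR level rested on the male library. The 17 glucocorticoid targets tested had a median of -0.43 and log2 differences of -1.34 to 0.44. Sgk1, a kinase induced by corticosteroids, was at -1.34 and Fkbp5 at -1.11. The genotype comparison in DR used the same single DR GR-Con library, so the target values of both comparisons are not separate observations. Transporters had a median of 0.16 and Cldn5 a difference of 0.03 ± 0.39 (SE).

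In GR-KO animals Ier3, Slc16a1 and Megf6 were higher in DR than in NR, with 2 libraries a side. Ier3 (chr17:35821684-35822923), an immediate early gene of stress responses that is induced through NF-κB, stood at 19.5 and 6.74 CPM in NR (male, female) and at 106.5 and 68.7 in DR. The groups did not overlap, as the naming rule required, and the log2 difference was 2.58 ± 0.52 (SE, adjusted p = 5.8e-04 by edgeR). It was also called without neuron-rich nuclei (2.45, adjusted p = 0.015), but not without DR GR-KO male (2.26, adjusted p = 0.089), by the quasi-likelihood F-test (adjusted p = 0.40) or by DESeq2 (adjusted p = 0.29), so the adjusted p of its alternatives ran from 3.7e-04 to 0.85. It rested on 94 UMIs in 67 nuclei, of which 17.0% lay in neuron-rich nuclei. Mural markers stood lower in the DR than in the NR libraries of GR-KO: without neuron-rich nuclei they summed to 29.1 and 12.01 per 10000 UMIs in NR GR-KO and to 8.24 and 8.45 in DR GR-KO, and with all nuclei the 6 tested had log2 differences of -1.15 to -0.46 (median -0.94), with 0 called. The endothelial nuclei also differed in depth, with medians of 14627 and 6231 UMIs in NR GR-KO and 2556 and 2469 in DR GR-KO, and NR GR-KO male is a library with a high UMI floor. The part of mural RNA and of depth in the calls of this comparison was not tested.

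Slc16a1 (chr3:104638668-104658462), the MCT1 transporter by which lactate and ketone bodies pass the barrier, stood at 107 and 92.1 CPM in NR and at 240 and 231 in DR, a difference of 1.19 ± 0.30 (SE, adjusted p = 0.029 by edgeR). The groups did not overlap, as the naming rule required, and it was the one list gene called in this comparison. The size was about the same in the other fits, from 1.06 to 1.45, but the call was lost without neuron-rich nuclei (1.11, adjusted p = 0.33), without each single library (adjusted p from 0.19 to 0.74) and by the quasi-likelihood F-test (adjusted p = 0.41), and the adjusted p of all other fits ran from 0.0079 to 1.00. In GR-Con the levels were 137 and 105 CPM in NR and 175 in DR. Megf6 (chr4:154170730-154275713), which encodes a secreted protein with EGF repeats, was at 37.6 and 44.9 CPM in NR and at 98.9 and 128 in DR (1.41 ± 0.38, adjusted p = 0.038), and its call was likewise lost without each single library (adjusted p from 0.092 to 0.53, and from 0.035 to 1.00 over all other fits).

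**Figure D5:**
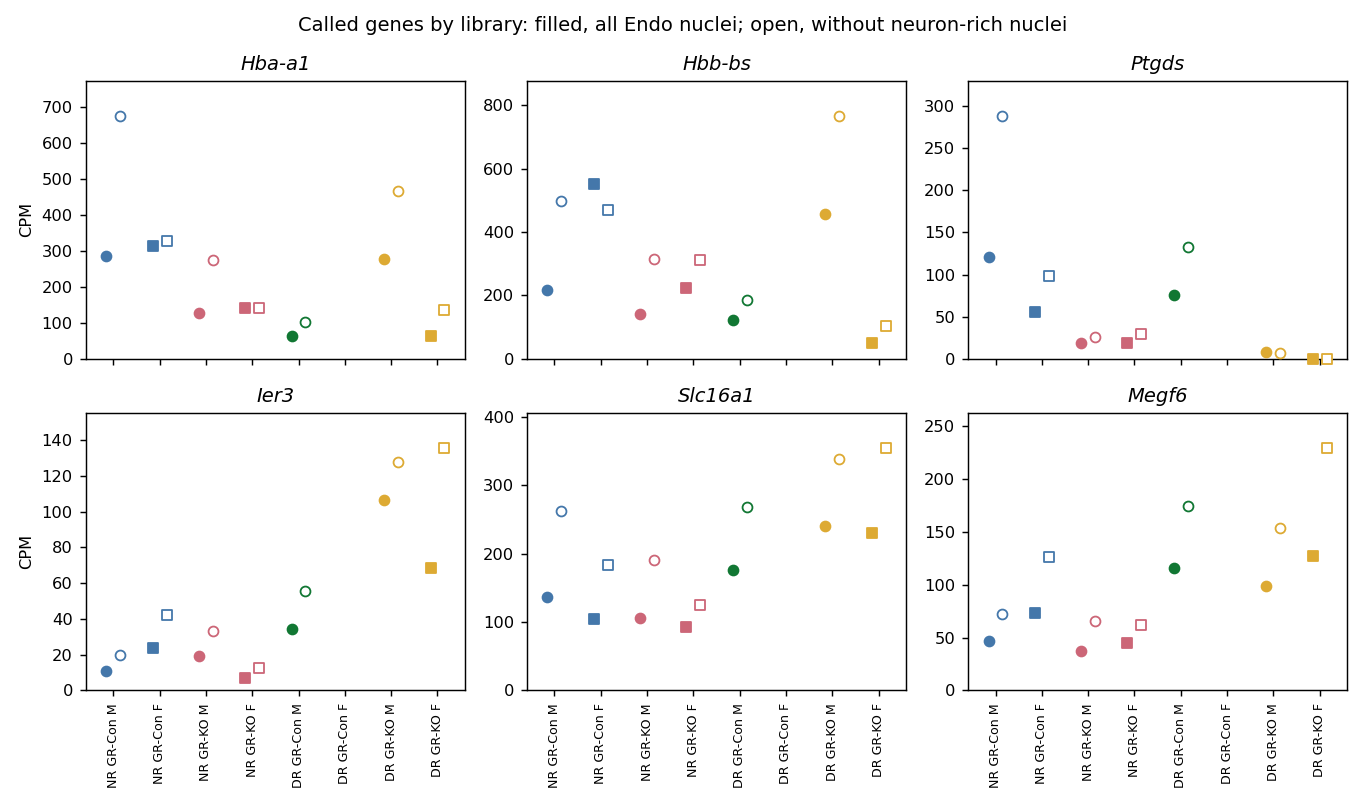
CPM of 6 called genes in each of 7 libraries, with all endothelial nuclei (filled) and without neuron-rich nuclei (open), circles male and squares female, axes from 0. Ier3, Slc16a1 and Megf6 are higher in both DR GR-KO libraries than in both NR GR-KO libraries (Slc16a1 231 and 240 against 92.1 and 107 CPM, all nuclei), Ptgds is lower in every GR-KO library than in every GR-Con library with all nuclei, and the haemoglobin genes Hba-a1 and Hbb-bs vary between libraries of a group.

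Abcc4, the efflux pump, gave the next transporter value, at 726 and 671 CPM in NR GR-KO and 1419 and 1388 in DR GR-KO without neuron-rich nuclei, against 972 and 1077 in NR GR-Con and 1196 in DR GR-Con. In GR-KO the libraries did not overlap and the difference was 0.99 ± 0.27 (SE), but it did not pass the adjustment (adjusted p = 0.14 by edgeR). Edn1, also without neuron-rich nuclei, was at 202 and 220 CPM in NR GR-KO and 109 and 62.6 in DR GR-KO (log2 -1.23, adjusted p = 0.34 by edgeR). It was at 72.2 and 127 in NR GR-Con and 136 in DR GR-Con. In the fit with all nuclei the 7 tested genes of its list, vascular tone and mural signalling, had log2 differences of -0.73 to 0.60. Of these 0 had an unadjusted p under 0.05. With all nuclei the 20 transporters tested had a median of 0.11, and 4 of them had an unadjusted p under 0.05 by edgeR, against 6.57% of all genes tested. The 17 glucocorticoid targets tested had a median of 0.11. Of the transporters Slc16a1 was called and of the glucocorticoid targets 0 were. The targets ran from -1.03 to 1.14, and 3 of the 17 had an unadjusted p under 0.05 by edgeR, against 6.57% of all genes tested. Zbtb16 stood at 0.98 (unadjusted p = 0.0064 by edgeR).

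Of the other genes the rule named in GR-KO, Zhx3, a transcriptional repressor, was higher in DR (log2 1.17, adjusted p = 0.048 by edgeR) with 182 and 166 CPM in NR and 384 and 427 in DR. Uba3, a subunit of the NEDD8-activating enzyme, and Ddx55, an RNA helicase, were lower, Uba3 at 45.1 and 49.4 CPM in NR against 3.81 and 9.81 in DR (adjusted p = 0.0068) and Ddx55 at 45.1 and 40.5 against 7.61 and 4.91 (adjusted p = 0.021). Uba3 and Ddx55 each held 3 UMIs over both DR libraries, and the ratio of DR to NR was 0.137 for Uba3 (exact 95% counting interval 0.0274 to 0.424) and 0.149 for Ddx55 (0.0296 to 0.462). The calls of Zhx3, Uba3 and Ddx55 were each lost without any single library. Sez6l (log2 1.43), Gm50304 (-2.57), Gm45159 (-1.81), Epha6 (-1.62) and Mlip (-1.60) held 93.1% to 98.9% of their UMIs in neuron-rich nuclei. The oligodendrocyte markers Mbp and Mog were called lower, against 0.317% of all genes tested. Mbp had a log2 difference of -2.21, and Mog held 1 UMI in DR against 61 in NR, a ratio of 0.039 (exact 95% counting interval 9.7e-04 to 0.226). The call of Mbp was lost without NR GR-KO male (-1.56, adjusted p = 0.12) and that of Mog without DR GR-KO female (0.082). By the quasi-likelihood F-test neither was called (adjusted p = 0.40 for Mbp and 0.41 for Mog). Without neuron-rich nuclei Mbp was at 884 CPM in NR GR-KO male and 41.4 in NR GR-KO female, against 70.3 and 83.5 in DR GR-KO, so the NR level rested on the male library, which has a high UMI floor.

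Over both genotypes, with genotype as a term, DR against NR called 12 of 7318 genes (0.164%), and 0 without neuron-rich nuclei (306 with an unadjusted p under 0.05). The quasi-likelihood F-test called 0 (435 unadjusted) and DESeq2 2. Ier3 had log2 1.97 (adjusted p = 0.016 by edgeR, and 0.12 without neuron-rich nuclei), with 10.97 and 23.6 CPM in NR GR-Con and 34.5 in DR GR-Con beside the GR-KO values above. Megf6 had 1.20 ± 0.27 (SE, adjusted p = 0.013, and 0.12 without neuron-rich nuclei), with 46.6 and 73.4 CPM in NR GR-Con and 116 in DR GR-Con. The call of Ier3 was lost without any single GR-KO library (adjusted p = 0.072 to 0.26), and that of Megf6 without NR GR-Con male (0.070), NR GR-KO male (0.069) or DR GR-KO female (0.12). Each of the 3 DR libraries lay above each of the 4 NR libraries for both genes, with all nuclei, as the naming rule required. Oligodendrocyte and mural markers had negative medians in the same comparison. The 5 oligodendrocyte markers tested had a median of -1.61, with 1 called (Mog) and 5 at an unadjusted p under 0.05. The 6 mural markers tested had a median of -0.69, with 0 called. For DR against NR within GR-Con and within GR-KO, the astrocyte markers had medians of 0.117 and 0.118 and the neuron markers of 0.21 and -0.01. The part of RNA of other types in these calls was not tested. Pdzrn3, a ubiquitin ligase, had -1.19, and 0.07 without neuron-rich nuclei.

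The interaction, which is the effect of genotype under NR less its effect under DR, called 15 of 8373 genes (0.179%). Of the 15, 14 held most of their UMIs in neuron-rich nuclei, which held 50.1% of all endothelial UMIs. The quasi-likelihood F-test called 0 (301 unadjusted), DESeq2 0 (83), and the likelihood ratio test 0 without neuron-rich nuclei (216). Of 216 list genes tested 0 were called, with a median of -0.10 against -0.02 over all genes. Foxp2, a transcription factor that L6CT neurons express at 1240 CPM, was called lower in GR-KO in NR (-2.01) and higher in DR (2.01), and by the interaction (-4.05, adjusted p = 1.4e-04 by edgeR, 0.21 by the quasi-likelihood F-test). It is named because of its values, and 85.9% of its UMIs lay in neuron-rich nuclei. Syt4, a synaptotagmin of neuronal vesicles, was the gene the rule named, with 8.23 and 26.2 CPM in NR GR-Con, 51.1 and 49.4 in NR GR-KO, 58.0 in DR GR-Con and 15.2 and 24.5 in DR GR-KO (3.11 ± 0.76 SE, adjusted p = 0.030 by edgeR, 0.74 by the quasi-likelihood F-test). Its call was lost without NR GR-Con male (0.29), NR GR-KO male (0.13), NR GR-KO female (0.087) or DR GR-KO male (0.18).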

How the data were processed

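Nuclei were extracted from frozen V1 and processed with the droplet 3′ kit, and the authors state in their methods that they aligned reads to mm10 (GRCm38) with a custom annotation holding EGFP, using Cell Ranger 8.0.1 and Seurat 5.3.0 (versions per the labels), removed predicted doublets and nuclei of extreme gene number, and dropped clusters without markers. The deposited matrix holds UMI counts, not normalized, and the deposited cell table gives library, sex and type per nucleus, which were taken as they are. Libraries are named by group and sex because their names carry no replicate number.

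Counts of endothelial nuclei were summed per library (203837 to 665863 UMIs in the 7 libraries used), filtered with filterByExpr and scaled by TMM. They were tested, two-sided, with glmLRT of edgeR 4.0.16 in R 4.3.3, fitting the libraries of each comparison. The methods of the study name glmLRT for the genotype comparison in NR, without a filter or scaling. The quasi-likelihood F-test and DESeq2 1.42.0 were alternatives. CPM are UMIs scaled to 1000000 per library. SE was derived from the fold change and the likelihood ratio statistic. Scripts were tested on simulated counts. Coordinates are from GENCODE vM21. The members and the lists were chosen with earlier results of these data known.

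Named were members of the lists, the 25 genes with the highest ratio to the next type at 50 CPM or more and, per comparison, up to 6 called genes per direction that averaged log2 CPM 5 or more with no overlap between libraries (not asked of the interaction), leaving out sex-linked genes and those at least 4-fold higher in another type, chosen by fold change and, where the quasi-likelihood test also called them, by p. The limit for neuron-rich nuclei and the fits on UMI floors were added after the data were seen. Results of some genes are not reported here.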

Additional observations from a re-analysis of the deposited data

Results flagged for a closer look

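The genotype difference in NR and that in DR were compared by the interaction term, which called 15 genes in endothelial nuclei by the edgeR likelihood ratio test and 0 by the quasi-likelihood F-test or DESeq2. Of these, 14 held most of their UMIs in neuron-rich nuclei, which held 50.1% of all endothelial UMIs. For Syt4 the log2 difference between both effects was 3.11: the levels were higher in NR GR-KO (51.1 and 49.4 CPM) than in NR GR-Con (8.23 and 26.2), and lower in DR GR-KO (15.2 and 24.5) than in the DR GR-Con library (58.0). Without neuron-rich nuclei it was 2.53 and not called (adjusted p = 1.00 by edgeR). Groups of 2 libraries are too small to look for a library far from the rest of its group.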

How the results depend on the processing

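The number of called genes depended on nearly every choice. By the quasi-likelihood F-test it was 0 for the NR genotype comparison, GR-KO rearing, the interaction and both fits over 2 factors, and by DESeq2 it was 4, 0, 0, 0, 0, 3 and 2, in the order NR genotype, DR genotype, GR-Con rearing, GR-KO rearing, interaction, genotype over both rearings and rearing over both genotypes. Without neuron-rich nuclei it was 1, 5, 7, 2, 0, 2 and 0, and with the quasi-likelihood F-test as well 0 for the NR genotype, GR-KO rearing, the interaction and both fits over 2 factors and 10 for GR-Con rearing. A sex term gave 73 (NR genotype), 20 (GR-KO rearing), 11 (genotype, both) and 27 (rearing, both), and without neuron-rich nuclei 39 (NR genotype), 9 (GR-KO rearing), 5 (interaction) and 36 (rearing, both). Equal numbers of nuclei gave 401 (GR-Con rearing), 23 (interaction), 3 (genotype, both) and 34 (rearing, both). Fitting all 7 libraries together gave 1 (DR genotype) and 6 (GR-Con rearing). A UMI floor term gave 26 (interaction) and 30 (rearing, both), and without neuron-rich nuclei 8 and 7. Libraries with the low floor alone gave 28 (rearing, both), and without neuron-rich nuclei 19 (GR-KO rearing) and 6 (interaction). Leaving out 1 library gave 18 to 61 (NR genotype, 28 without NR GR-Con male and 61 without NR GR-KO female), 23 to 54 (GR-KO rearing, 54 without DR GR-KO male), 8 to 27 (interaction, 8 without NR GR-KO male and 27 without DR GR-KO male), 6 to 14 (genotype, both, 14 without DR GR-Con male) and 8 to 32 (rearing, both, 22 without NR GR-Con female and 32 without DR GR-Con male). For the share of endothelial nuclei it gave log2 differences of -0.48 to 0.92 (NR genotype), -0.95 to 3.40 (DR genotype), -3.33 to 1.02 (GR-Con rearing), -0.43 to 0.39 (GR-KO rearing), -3.37 to 0.99 (interaction), -0.36 to 1.08 (genotype, both) and -0.99 to 0.45 (rearing, both). The cause of these shifts was not tested. With equal numbers of nuclei the GR-Con rearing differences of Pdzrn4, Hba-a2 and Hbb-bs changed sign, to -2.01, 0.24 and 1.02. Without neuron-rich nuclei that of Pdzrn3 over both genotypes changed sign, to 0.0671, to 0.0623 by the quasi-likelihood F-test, to 0.73 with a UMI floor term and to 0.74 in low-floor libraries. The share of nuclei with delCre was 0 after thinning. Among the values of single named genes 113 stayed on their side of the threshold, 174 kept the direction without passing it and 7 changed sign.

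Leaving out 1 library and a sex term were not run for the DR genotype and GR-Con rearing in the tests on genes, which had 3 libraries and 1 residual degree of freedom. No paired analysis was possible because the library names carry no replicate number, while the sex term above blocks male and female libraries. The depth limits what can be seen: 3 counts in a library correspond to 4.51 to 14.7 CPM in the 7 libraries used, and levels below that, as those of Ptgds, Ranbp3l, Uba3 and Ddx55 in DR GR-KO, rest on fewer counts.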
